A study of Amia calva with 36 samples.

Results

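Endoderm genes seen mainly at stage 27 are 56 of the 21948 genes measured in laser-cut foregut tissue of embryos of the bowfin, Amia calva, and 56 of the 11428 that carry a spotted gar ortholog identifier. They were chosen on the deposited log2 CPM values, where CPM is a gene's reads scaled to a fixed total per library. At stage 27 the lower of the dorsal and ventral endoderm means had to exceed the higher of the 2 mesoderm means by at least 2 on the log2 scale, which is 4-fold, and the 2 endoderm means had to lie within 2 of each other. These are means of log2 values, and a ratio of mean CPM can be smaller. Each member also had to have a read in all 6 endoderm libraries of stage 27, but in at most 10 of the 18 endoderm libraries of all stages, so in at most 4 of the 12 from stages 24 and 25. The higher level in endoderm at stage 27, the balance between its sides and the scarcity of reads in earlier endoderm were therefore set by the choice and are given below as values. Other comparisons still share libraries with the choice, and the limit this sets is given beside each.

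The bowfin is a ray-finned fish that breathes air with a gas bladder, an outgrowth of the dorsal foregut; lungs grow out ventrally. The eggs were taken from nests in a lake and reared at 12.8 °C, and the embryos were sampled at Ballard stage 24, just before the bud forms, at stage 25, when it forms, and at stage 27, when it grows out. Dorsal endoderm, dorsal mesoderm, ventral endoderm and ventral mesoderm were cut by laser from transverse sections of 15 µm along the bud, the dorsal pieces being labelled as foregut with gas bladder and the ventral ones as foregut. Each of the 12 groups of side, layer and stage held 3 libraries, 36 in all, with no treatment and no genotype. Endoderm forms the epithelial lining of the gut and of the organs that bud from it, and the mesoderm around it forms connective tissue, smooth muscle and vessels. The layers exchange signals while a bud forms, and the epithelium of a bud matures after it has grown out.

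Libraries held 377516 to 1998280 reads assigned to genes, apart from replicate 3 of stage 24 ventral endoderm, which held 3040 and in which 1 read is worth 329 CPM. Stage 27 libraries had reads of 8511 to 13512 genes and the earlier ones of 1259 to 8249. The members are known by bowfin and gar identifiers, which the files do not pair with gene names, so no function, pathway or cell type marker is described and the labelled layers were not checked against marker genes. CPM is not scaled to gene length, so an order of CPM among members is not an order of transcript abundance. In tissue pieces, fewer cells of a type and less RNA per cell cannot be told apart.

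At stage 27 the members had a mean of 12.3 to 193 CPM over the 6 endoderm libraries, with a median of 54.1 and quartiles of 34.6 and 80.5 CPM. The members' summed CPM was 3772, 3654 and 3766 in the 3 dorsal endoderm libraries and 2224, 3489 and 4461 in the 3 ventral ones, or 0.373% ± 0.00667 and 0.339% ± 0.112 of the reads (SD, n = 3 each). In dorsal mesoderm the sum was 279, 192 and 38.7 CPM and in ventral mesoderm 247, 378 and 465 CPM. The endoderm mean was 13.4 times the mesoderm mean. These sums show the choice: every endoderm library of stage 27 lies above every mesoderm library of that stage. The difference between layers that chose the members ran from 2.03 to 4.16 on the log2 scale with a median of 2.49, and was at least 3 in 15 members. Library by library, the lowest endoderm library exceeded the highest mesoderm library in 31 members, against 1.95% of the 13471 genes tested at stage 27.

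**Figure D1:**
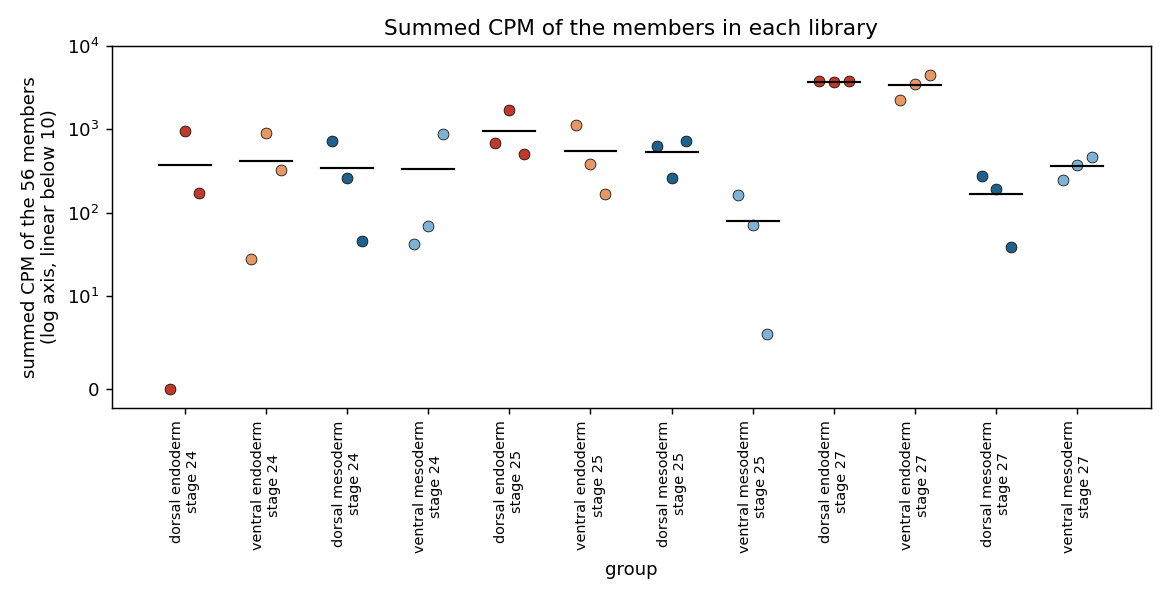
Summed CPM of the 56 members (y axis, logarithmic above 10 and linear below) in each library of the 12 groups (x axis), with a bar at the mean of each group's 3 libraries. The 6 stage 27 endoderm libraries lie between 2224 and 4461 CPM, above all other libraries, and the stage 24 ventral endoderm point at 329 CPM is 1 read of the library of 3040 reads.

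AMCG00006059 (gar ENSLOCG00000002011) had the largest difference between layers. It had 53.9, 89.9 and 78.2 CPM in dorsal endoderm and 57.0, 44.3 and 86.4 CPM in ventral endoderm at stage 27. In mesoderm of that stage it had no read in the 3 dorsal libraries and 0.569, 7.65 and 0 CPM in the ventral ones. The 6 endoderm libraries lay close together, with the highest 2.03 times the lowest, which was the smallest such ratio among the members. Before stage 27 its reads came from 1 library, stage 25 ventral endoderm replicate 1, with 53.7 CPM.

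AMCG00013819 (ENSLOCG00000010201) came next in the difference between layers. It had 243, 126 and 172 CPM in dorsal and 33.0, 91.2 and 115 CPM in ventral endoderm, so that each dorsal library lay above each ventral one. Its mesoderm values were 0 CPM in the 3 dorsal libraries and 0.569, 0 and 14.1 CPM in the ventral ones. In earlier endoderm it was read in 4 libraries, at 84.0 CPM in 1 dorsal library of stage 24, 42.7 and 0.999 CPM in 2 dorsal libraries of stage 25 and 2.88 CPM in 1 ventral library of stage 25. No mesoderm library of stage 24 or 25 had a read of it.

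The members with the most CPM in stage 27 endoderm varied more between libraries. AMCG00015255 (ENSLOCG00000003550) had 166, 458 and 87.7 CPM in dorsal and 38.0, 163 and 247 CPM in ventral endoderm. Its mesoderm values were 0, 5.30 and 1.38 CPM dorsally and 9.10, 7.01 and 106 CPM ventrally. The highest ventral mesoderm library therefore lay above the lowest library of either endoderm side, although the group means differed. AMCG00019304 (ENSLOCG00000001396) had 266, 33.2 and 257 CPM in dorsal and 60.1, 166 and 147 CPM in ventral endoderm, against 12.8, 0 and 0 CPM in dorsal and 5.12, 19.8 and 38.1 CPM in ventral mesoderm. These 2 members took 5.43% and 4.35% of the members' summed CPM in stage 27 endoderm, and the top 5 took 21.5%, so no single member carries the sum.

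AMCG00000954 (ENSLOCG00000008636) was the 1 member without a read in any of the 18 mesoderm libraries. Its stage 27 endoderm values were 25.7, 35.3 and 17.8 CPM dorsally and 42.5, 63.8 and 0.691 CPM ventrally, the last of which is 1 read. Reads of it were also found in 4 endoderm libraries of the earlier stages, at 25.3 and 41.2 CPM in replicate 2 of dorsal and ventral endoderm at stage 24 and at 7.99 and 13.4 CPM in 1 dorsal and 1 ventral library of stage 25. It was thus read in 10 endoderm libraries and in no mesoderm library.

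At the threshold on the difference between layers, the 2 members just inside were AMCG00000098, at 2.03, and AMCG00000085, at 2.05, and the 2 genes just outside were AMCG00021141, at 1.99, and AMCG00009349, at 1.99. At the limit on earlier reads, 16 members were read in 10 of the 18 endoderm libraries, and 11 genes that met the other conditions were left out because they were read in 11. Among the 3933 gar-matched genes read in all 6 endoderm libraries of stage 27, 1241 were read in at most 10 of 18 endoderm libraries, and the members are 4.51% of these. The 2692 read in more than 10 included 71 that met the same conditions on the layers (2.64%), which are called the endoderm genes read across stages here. They had a median of 130 CPM in stage 27 endoderm, against 54.1 CPM in the members. Exchanging the layers in the rule selected 125 mesoderm genes.

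**Figure D2:**
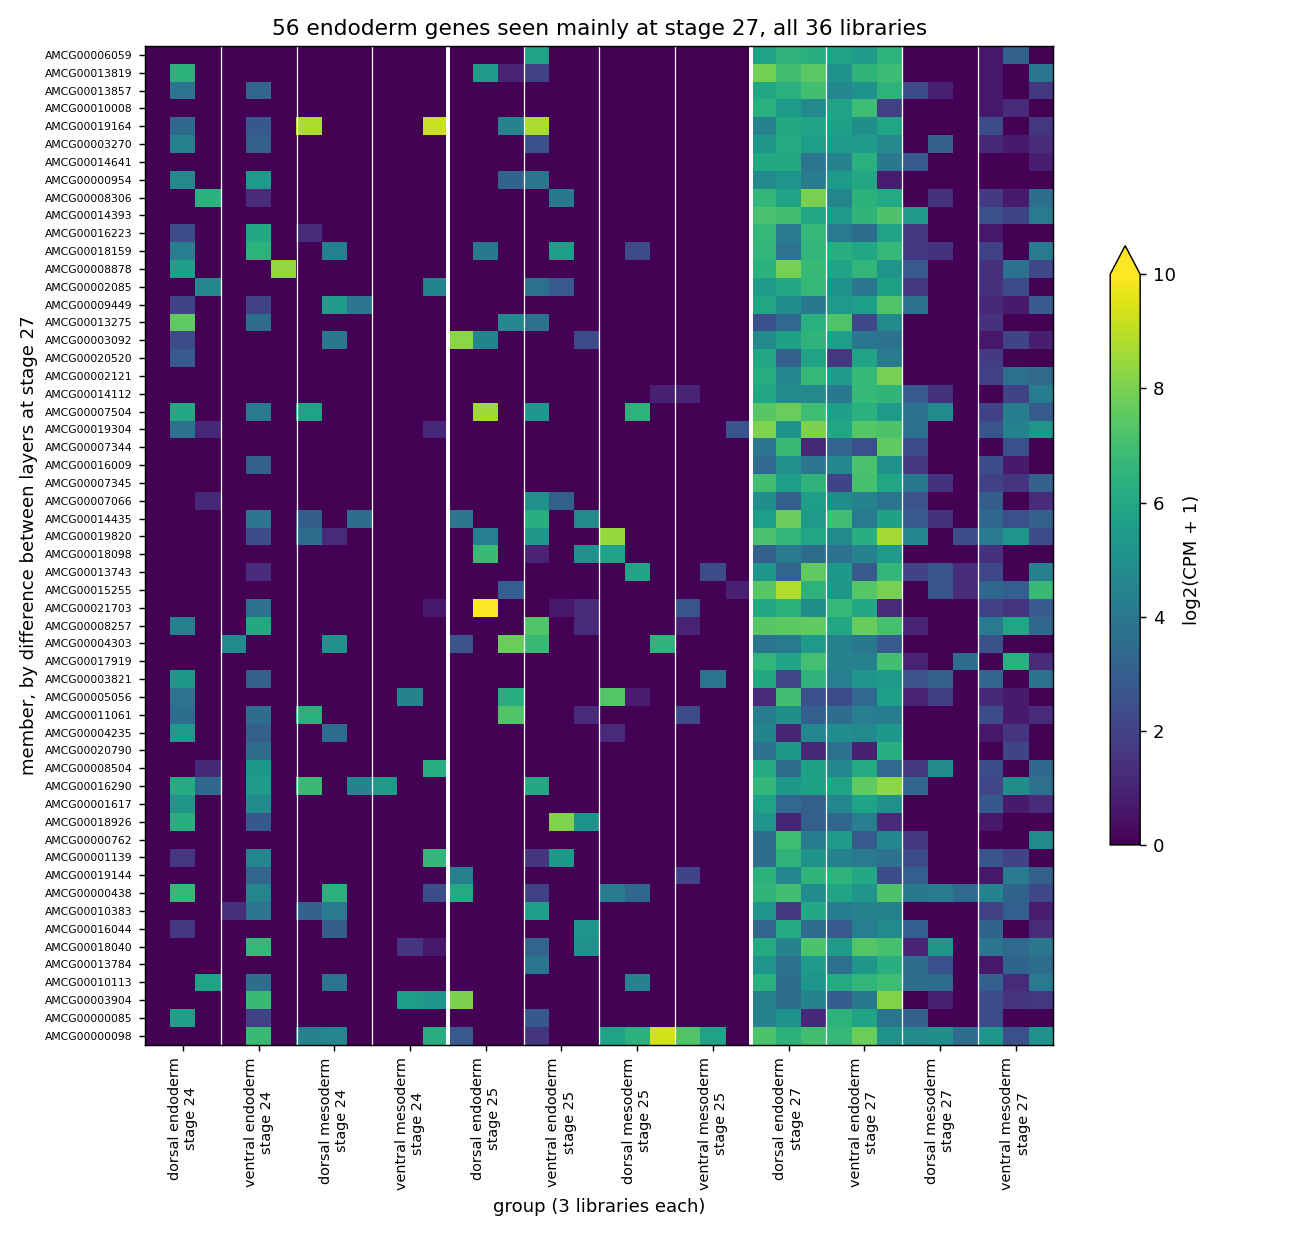
Levels of the 56 members (rows, by falling difference between layers at stage 27) in all 36 libraries (columns, in groups of 3), as log2(CPM + 1) from 0 (dark) to 10 or more (yellow). The 6 stage 27 endoderm columns are filled in every row by the choice of members. Earlier reads gather in replicate 2 of stage 24 dorsal and ventral endoderm, with 26 and 33 members, and in replicate 1 of stage 25 ventral endoderm, with 22.

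The sides of the endoderm were balanced at stage 27 within the limit that the choice set. The dorsal minus ventral difference of log2 means ran from -1.71, in AMCG00000085, to 1.5, in AMCG00007504, with a median of 0.28. AMCG00000085 (ENSLOCG00000014000) had 19.9, 33.2 and 1.19 CPM in dorsal and 87.6, 55.8 and 13.8 CPM in ventral endoderm, with 1 ventral library below 2 of the dorsal ones. AMCG00007504 had 117 to 208 CPM dorsally and 42.8 to 83.2 CPM ventrally, without overlap. The difference lay within 0.5 in 22 members and within 1 in 38. The mean was higher dorsally in 34 members. In 2 members all dorsal libraries lay above all ventral ones and in 1 member the reverse held, against 4.36% and 3.07% of the 13471 genes tested at that stage.

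Single libraries differed widely within those means. The ratio of the highest to the lowest of the 6 stage 27 endoderm libraries had a median of 8.81 and exceeded 10 in 26 members. Its largest value was 160, in AMCG00007344, and its median over the 1241 genes with as few earlier reads was 14.4. The coefficient of variation over the 6 libraries ran from 27.8% to 184%, with a median of 69.8%. A member was counted on 1 or more reads in each library, and 34 of the 336 values behind these levels rested on fewer than 10 reads. In all, 23 members had at least 1 such library. The lowest sum over the 6 libraries was 105 reads and the median 423. Ventral endoderm replicate 3 was the highest of the 6 libraries in 14 members and the lowest in 11, so high and low values were not those of 1 library. Across the 56 members, Pearson's r of log2 CPM between pairs of these libraries was -0.02 to 0.70, with a median of 0.26, and r between the dorsal and ventral means was 0.69. These describe genes chosen on their values in these same libraries, which were of unequal depth.

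In endoderm of stages 24 and 25 the members were read in few libraries, as the choice required. Of the 56, 9 had no read in any of the 12 libraries, 7 were read in 1, 14 in 2, 10 in 3 and 16 in 4. These were 129 of 672 possible pairs of a member and a library (19.2%). Replicate 2 of dorsal and of ventral endoderm at stage 24 gave 26 and 33 of these pairs, 45.7% in all, and 19 members had no earlier endoderm read outside them. Both libraries also held reads of more genes than the other endoderm libraries of stages 24 and 25, with 7391 and 8249 genes against 1259 to 5780. The part that this breadth of detection has in the stage pattern was not tested.

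AMCG00014393 (ENSLOCG00000009411) and AMCG00002121 (ENSLOCG00000003945) were the members with the most CPM among the 9 without an earlier endoderm read, and neither had a read in earlier mesoderm. The first had 141, 123 and 61.6 CPM in dorsal and 41.5, 93.0 and 146 CPM in ventral endoderm at stage 27, with 44.2, 0 and 0 CPM in dorsal and 4.55, 3.19 and 16.2 CPM in ventral mesoderm. AMCG00002121 had 73.8, 24.6 and 102 CPM in dorsal and 45.0, 104 and 249 CPM in ventral endoderm, no read in dorsal mesoderm and 2.84, 11.5 and 9.87 CPM in ventral mesoderm. Both were read in all 3 ventral mesoderm libraries of stage 27.

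Where a member was read in earlier endoderm it was not always low there. The median of such values was 18.2 CPM. In 25 members at least 1 earlier endoderm library lay above the member's stage 27 endoderm mean, and in 10 it lay above all 6 stage 27 endoderm libraries (without the library of 3040 reads). AMCG00021703 (ENSLOCG00000007174) had 1126 CPM in replicate 2 of stage 25 dorsal endoderm and at most 12.8 CPM in the other 11 earlier endoderm libraries, against 64.2, 84.5 and 29.6 CPM in dorsal and 101, 62.0 and 1.38 CPM in ventral endoderm at stage 27. It took 17.2% of the members' summed CPM in earlier endoderm. AMCG00007504 (ENSLOCG00000013450) had 380 CPM in that same library, above its stage 27 values of 170, 208 and 117 CPM in dorsal and 48.5, 83.2 and 42.8 CPM in ventral endoderm. For such members "mainly at stage 27" describes how many libraries held a read, not how high the level was.

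**Figure D3:**
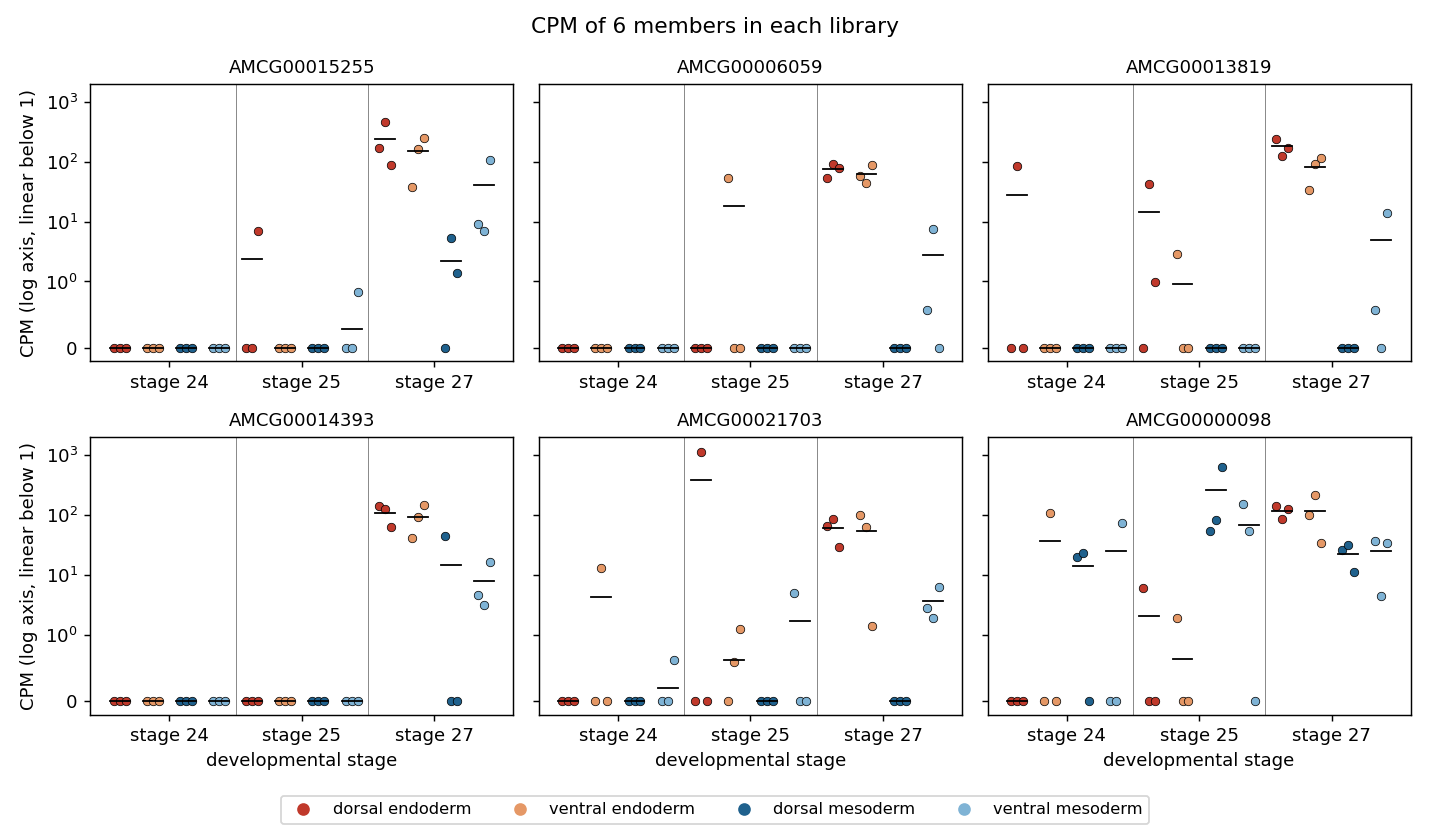
CPM of 6 members in each of the 36 libraries (points; y axis logarithmic above 1 and linear below), in the 4 regions at each stage (x axis), with a bar at each group's mean. AMCG00014393 has reads at stage 27 alone, AMCG00021703 reaches 1126 CPM in 1 dorsal endoderm library of stage 25, and AMCG00000098 has up to 633 CPM in mesoderm of stage 25.

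Mesoderm of stages 24 and 25 was not used to choose the members. There, 24 of the 56 had no read in any of the 12 libraries, 27 were read in 1 or 2, 4 in 3 or 4, and 1 in 8. These were 64 of 672 possible pairs (9.52%), against the 19.2% in endoderm, where the choice set an upper limit and mesoderm had none. By library, a mean of 5.33 members had a read in earlier mesoderm and 10.8 in earlier endoderm. For the 71 endoderm genes read across stages the means were 26.4 and 46.9. Those 71 had to be read in more than 10 of the 18 endoderm libraries, with no such demand on mesoderm. Their gap between layers is thus partly set by their choice, and the 2 sets are not compared here. Of the 56 members, 36 were read in more earlier endoderm than earlier mesoderm libraries, 16 in equal numbers and 4 in more mesoderm libraries. Libraries with reads of a like number of genes can be set side by side: at stage 24, replicate 2 of dorsal endoderm had reads of 26 members among 7391 genes and replicate 2 of dorsal mesoderm of 11 among 7283. At stage 25, replicate 1 of ventral endoderm had reads of 22 members among 5780 genes and replicate 2 of dorsal mesoderm of 7 among 5379. Some libraries with fewer genes were closer: at stage 25, replicate 2 of ventral endoderm had 7 members among 4159 genes and replicate 1 of dorsal mesoderm 6 among 4152. At stage 24, replicate 1 of ventral endoderm had 2 among 2885 and replicate 2 of ventral mesoderm 3 among 2700. Others were not: at stage 24, replicate 3 of dorsal endoderm had 7 among 4397 and replicate 1 of ventral mesoderm 1 among 4363. At stage 25, replicate 1 of dorsal endoderm had 7 among 4879 and replicate 2 of ventral mesoderm 3 among 4976. These pairs are examples and not all that could be set side by side.

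After thinning each library to 377516 reads, which left out the library of 3040 reads, the share of members with a read was 96.4% ± 3.09 in dorsal and 96.4% ± 1.79 in ventral endoderm at stage 27 and 26.2% ± 19.7 and 59.5% ± 10.9 in dorsal and ventral mesoderm (SD, n = 3 each). In the 11 earlier endoderm libraries it was 0% to 51.8% and in the 12 earlier mesoderm libraries 1.79% to 19.6%. Of the 3933 gar-matched genes read in all stage 27 endoderm libraries, 27.8% to 83.6% had a read in those earlier endoderm libraries and 29.0% to 74.2% in the earlier mesoderm libraries. The earlier ranges of the layers overlap for both sets. The choice limited the members' reads in earlier endoderm and set no such limit on the 3933 genes. A lower share of members than of those genes in earlier endoderm can come from the choice alone, so the sets are not compared there.

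**Figure D4:**
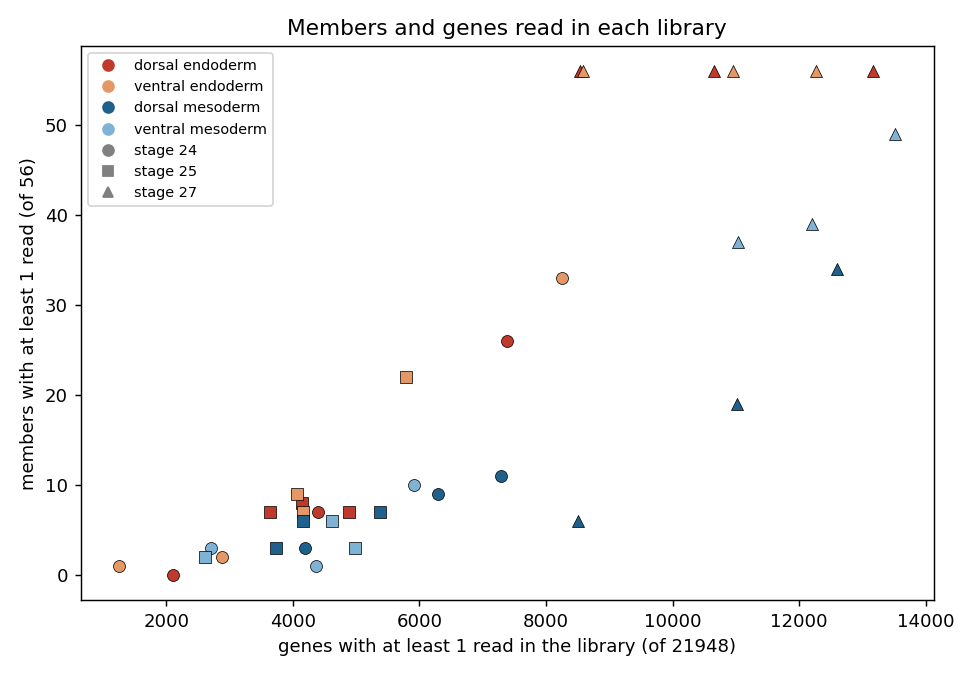
Members with a read (y axis, of 56) against all genes with a read (x axis, of 21948) in each of the 36 libraries, coloured by region and shaped by stage. All 6 stage 27 endoderm libraries lie at 56 by the choice of members, and stage 27 dorsal mesoderm replicate 3 has reads of 6 members among 8511 genes.

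Endoderm and mesoderm were tested at stages 25 and 24 with limma, a moderated test fitted to all genes with enough reads at the stage. Libraries are not tied to embryos by the labels and regions came from the same sections, so some libraries may share an embryo. The p-values given here and below measure the spread between these libraries and may be too small. Where the regions compared share an embryo they may instead be too large. The choice had also limited the endoderm side of both comparisons, since a member could have reads in at most 4 of these 12 libraries, so the members' counts are descriptions. At stage 25, 12 members passed the filter on low values and 0 were called at an adjusted p under 0.05 (limma, Benjamini-Hochberg), where 0.104% of 6748 genes were called. At an unadjusted p under 0.05, 1 of the 12 passed, against 6.21% of genes. Limma voom on recovered reads called 0 of the 12 as well, where 97 of 6748 genes were called. The log2 difference was higher in endoderm in 11 of the 12, against 50.2% of the genes tested. The 12 are those with enough reads at that stage and not all members. A gene could pass the filter on reads of 1 layer alone, as AMCG00003092 and AMCG00014435 did on endoderm reads, so no conclusion is drawn from this count. At stage 24, without the library of 3040 reads, 18 members passed the filter and limma called 0, where 0.0124% of 8043 genes were called. None of the 18 reached an unadjusted p under 0.05, against 3.12% of genes. Limma voom called 0 of the 18, where 14 of 8043 genes were called. The difference was higher in endoderm in 12 of these 18, against 46.8% of all genes tested. It was so in 9 of 18 with quantile normalization (48.1% of genes) and in 1 of the 7 tested without ventral endoderm replicate 2 (29.0%). The count was 15 of 18 with median centring (51.7%) and 16 of 18 without ventral endoderm replicate 1 (62.2%). It thus moved both ways, and no conclusion is drawn from it.

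AMCG00000098 (ENSLOCG00000013183) had the smallest p of the members at stage 25, and it was the 1 of 12 that was higher in mesoderm there, the opposite of its direction at stage 27. In stage 25 mesoderm it had 54.2, 81.9 and 633 CPM dorsally and 151, 53.3 and 0 CPM ventrally. In endoderm of that stage it had 6.04, 0 and 0 CPM dorsally and 1.92, 0 and 0 CPM ventrally. The endoderm minus mesoderm difference was -4.51 on the log2 scale (SE 1.78) and did not pass (limma adjusted p = 0.681; 0.0719 to 0.763 over its alternatives), with the groups overlapping in the 1 mesoderm library without a read. At stage 27 it had 142, 85.6 and 123 CPM in dorsal and 99.1, 216 and 33.9 CPM in ventral endoderm, against 25.5, 30.9 and 11.1 CPM in dorsal and 36.4, 4.46 and 34.5 CPM in ventral mesoderm. It was the member read in 8 of the 12 earlier mesoderm libraries. It took 27.9% of the members' summed CPM in earlier mesoderm, and AMCG00019164 (ENSLOCG00000009427), which was picked out after its values were seen, took 25.9%. The reads of AMCG00019164 there came from 2 libraries, at 435 CPM in stage 24 dorsal mesoderm replicate 1 and 578 CPM in stage 24 ventral mesoderm replicate 3. Its 6 stage 27 endoderm values were 20.5 to 66.3 CPM, and it had 426 CPM in 1 ventral endoderm library of stage 25.

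At stage 24 the smallest p among the members was that of AMCG00016223 (ENSLOCG00000001392). It had 4.05 and 64.0 CPM in replicate 2 of dorsal and ventral endoderm and no read in the other endoderm libraries, and in mesoderm 1.33 CPM in 1 dorsal library and none in the others. The log2 difference was 1.44 (SE 0.84, limma adjusted p = 1.0; 0.362 to 1.0 over its alternatives), and the groups overlapped. The difference was 2.73 without ventral endoderm replicate 1 and 0.89 with quantile normalization, and without replicate 2 of either endoderm side or replicate 1 of dorsal mesoderm the gene did not pass the filter. Between dorsal and ventral endoderm at stage 25, where the choice limited the reads of both sides, limma called 0 of the 12 members tested, where 0.0148% of 6748 genes were called. At an unadjusted p under 0.05 2 of the 12 passed, against 3.91% of genes. Limma voom called 0 of the 12, where 36 of 6748 genes were called. AMCG00008257 had the smallest p (log2 difference -2.39, SE 1.18, limma adjusted p = 0.99), with 0 CPM in the 3 dorsal and 155, 0 and 1.26 CPM in the ventral libraries.

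In mesoderm of stage 27, more members had reads on the ventral than on the dorsal side. All but 1 of the 56 were read in at least 1 ventral library and 38 in at least 1 dorsal library, and 17 were read ventrally and not dorsally. By library, 34, 19 and 6 members had a read in the dorsal replicates and 49, 37 and 39 in the ventral ones. The dorsal replicates held reads of 12602, 11012 and 8511 genes and the ventral ones of 13512, 11039 and 12195. Their totals were 1019146, 1133036 and 723011 reads dorsally and 1757712, 1568078 and 1418444 ventrally. With libraries thinned to 377516 reads, a mean of 26.2% of members had a read dorsally and 59.5% ventrally. For the 3933 gar-matched genes read in all stage 27 endoderm libraries the means were 87.6% and 94.7%. Those genes were not chosen to be low in mesoderm, and their shares lie near the upper limit. They cannot show a gap of the size seen in the members, so the 2 gaps are not compared. The mean CPM was higher ventrally in 42 members and dorsally in 13, and was 0 on both sides in 1. As a share of the endoderm of the same side, the mesoderm value had a median of 2.06% dorsally and 7.97% ventrally, and it exceeded 10% in 9 and 22 members. The 71 endoderm genes read across stages also had a lower median share dorsally (4.44%) than ventrally (12.7%), and 58 of them had the higher mean ventrally. The ratio of ventral to dorsal mean summed CPM was 2.14 for the members and 2.31 for those 71 genes, and the dorsal and ventral sums of the members overlapped. How far endoderm cells in the mesoderm pieces account for these reads was not tested.

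Dorsal and ventral mesoderm at stage 27 were compared with limma on the 12 libraries of the stage. The choice did not use the difference between these sides. It held the higher of their mean log2 values at least 2 below endoderm, which limits the size that a difference can have. The counts and medians of the members are therefore descriptions. The filter on low values also counted the endoderm libraries, so all 56 members could pass it on endoderm reads alone. The 4-fold limit does not hold for mean CPM, where ventral mesoderm reached up to 49.1% of ventral endoderm in a member. None of the 56 members was called, where 0.275% of 13471 genes were called. Limma voom called 0 members too, where 65 of 13471 genes were called. At an unadjusted p under 0.05 3 of the 56 passed, all lower dorsally, against 6.85% of genes. The log2 difference was negative (lower dorsally) in 45 members and positive in 10, with a median of -0.50, while over all tested genes 58.5% were negative and the median was -0.21. Without dorsal replicate 1 the members' median was -0.89 and that of all genes -0.39, and with quantile normalization they were -0.22 and -0.02. Without dorsal replicate 3, which had reads of the fewest members, they were -0.36 and -0.015, with 37 members negative and 18 positive. With only the 2 mesoderm groups in the fit, 32 members passed the filter and 0 were called, where 61 of 11557 genes were called. The difference was negative in 27 of these members and positive in 5, with a median of -0.62, against -0.21 for all genes. In 9 members all ventral libraries lay above all dorsal ones, against 7.51% of genes, and in 0 members the reverse held, against 4.48%. AMCG00008257 (ENSLOCG00000003197) had the smallest p, with 0.981, 0 and 0 CPM in dorsal and 16.5, 59.3 and 9.16 CPM in ventral mesoderm. The groups did not overlap, but the difference of -3.45 (SE 0.98) did not pass (limma adjusted p = 0.173; 0.0596 to 0.766 over its alternatives). In endoderm of that stage the same gene had 166, 175 and 187 CPM dorsally and 60.6, 203 and 136 CPM ventrally.

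Mesoderm of stage 27 was also compared with that of the earlier stages, where the choice bears on the result because it kept the members low in stage 27 mesoderm. The members' counts and medians are therefore given beside those of all genes as a description. The filter on low values also counted the endoderm libraries, so all 56 members could pass it on stage 27 endoderm reads alone. From stage 25 to 27, with both sides averaged, limma called 1 member, where 30.1% of 13780 genes were called, nearly all of them higher at stage 27 (30.0%). With quantile normalization 617 genes were called, 296 higher and 321 lower. From stage 24 to 27 it called 0 members, where 19.8% of 13896 genes were called, 2735 higher and 13 lower, or 341 higher and 69 lower with quantile normalization. At an unadjusted p under 0.05, 6 members passed in each comparison, all higher at stage 27, against 44.1% and 36.3% of genes. With limma voom 13 and 2 of the 56 members were called, where 5043 of 13780 and 2836 of 13896 genes were called. The members' median log2 difference was 0.73 and 0.60, and that of all genes tested was 1.51 and 1.31. Both medians turn negative with quantile normalization, at -0.48 and -0.39 for the members and -0.13 and -0.07 for all genes. The 2 comparisons share the stage 27 libraries, and stage 27 libraries held reads of more genes than earlier ones, as given above.

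AMCG00018040 (ENSLOCG00000004405) was the member called from stage 25 to 27. In mesoderm it had no read in the 6 libraries of stage 25, and at stage 27 it had 0.981, 38.0 and 0 CPM dorsally and 14.2, 9.57 and 14.8 CPM ventrally. The log2 difference was 2.33 (SE 0.89, limma adjusted p = 0.0479; 0.00359 to 0.842 over its alternatives), and 5 of 6 stage 27 libraries lay above those of stage 25. The call was lost in 16 of 23 alternatives, among them the replicate block (adjusted p = 0.0554) and quantile normalization (log2 difference 0.40, adjusted p = 0.842). Under quantile normalization limma instead called AMCG00000098, lower at stage 27 (log2 difference -3.38, SE 0.97, adjusted p = 0.0452), which without it had a difference of -1.47 (limma adjusted p = 0.274). In endoderm of stage 27 AMCG00018040 had 68.7, 20.3 and 142 CPM dorsally and 44.5, 160 and 137 CPM ventrally. AMCG00015255 had the smallest p of the members from stage 24 to 27, with no mesoderm read at stage 24 and the stage 27 values given above (log2 difference 2.25, SE 0.88, limma adjusted p = 0.0652; 0.0172 to 0.618 over its alternatives).

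**Figure D5:**
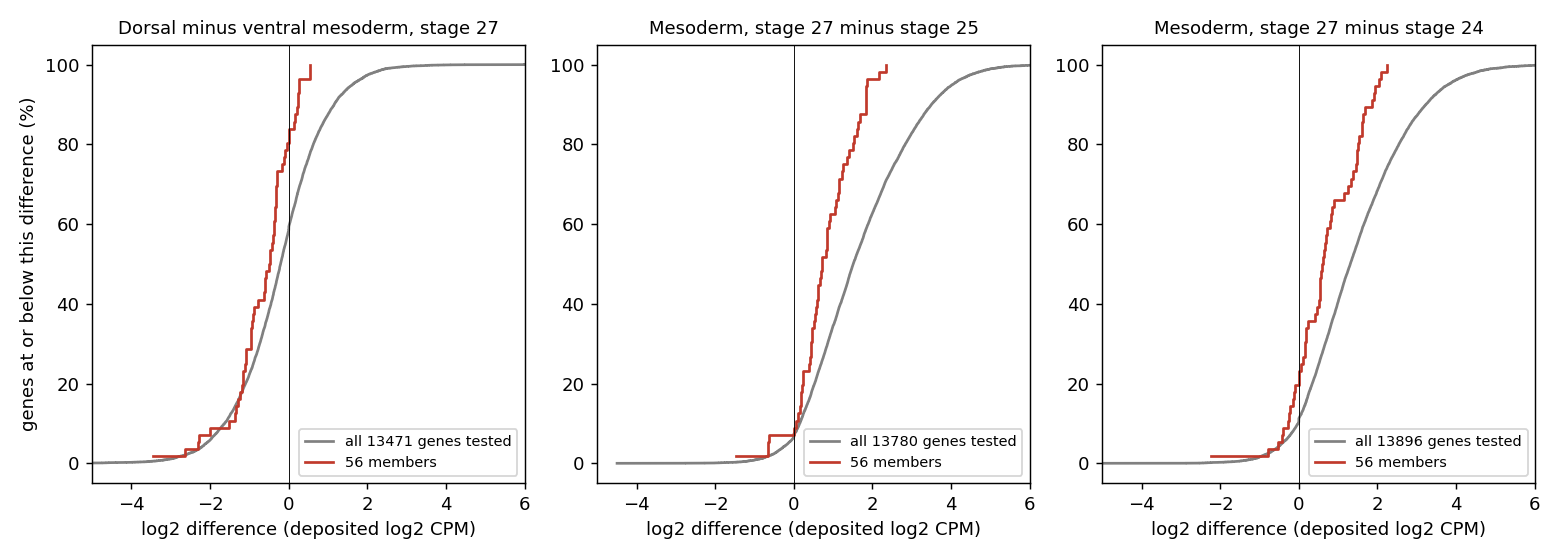
Cumulative share of genes (y axis, %) by log2 difference (x axis) in mesoderm, for the 56 members (red) and all genes tested (grey), between sides at stage 27 and between stage 27 and stages 25 and 24. The members' median is -0.50 between sides and 0.73 and 0.60 between stages, below the medians of all genes at -0.21, 1.51 and 1.31. All 56 members could enter these fits on stage 27 endoderm reads alone, so some have few or no mesoderm reads.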

How the data were processed

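The submitters' processing notes list Trimmomatic 0.38, STAR 2.6, edgeR and R 3.6.0, and the read counter, genome build and annotation are not given in the sources used here. The deposited table holds the authors' log2 CPM with a prior count of 2. Its floor and steps gave back library totals and whole reads: 100% of values up to 200 reads were whole within 0.02, and the table rebuilt from them was within 5.0e-09 of the authors' values. CPM here are those reads over the library total, and amplified reads are not independent molecules. The members, lists and tests were chosen with earlier results of these data known. Tests used limma 3.58.1 (trended) in R 4.3.3 on deposited log2 values, on libraries of the stages compared, without the library of 3040 reads at stage 24, on genes with recovered CPM over 1 in at least 3 libraries of the fit, with Benjamini-Hochberg adjustment over all genes tested. The function was run on simulated counts for some of the tests, with changes set only in genes above a minimum mean CPM. That run does not show how well changes at the members' low mesoderm levels would be found. Named members were, in each category, the 2 with the most CPM in stage 27 endoderm (also among members without earlier endoderm reads or without mesoderm reads), the most CPM in earlier endoderm, the largest layer difference or the place nearest its threshold, and, per test, called members or else the smallest p. Lists of marker genes by name matched 0 identifiers.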

Additional observations from a re-analysis of the deposited data

How the results depend on the processing

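The number of members was 96 with a difference of at least 1.5, 15 with at least 3, 30 with at most 8 endoderm libraries and 59 to 73 without 1 replicate number, which kept 34 to 39 of the 56. With a ratio of mean CPM of at least 4 in place of the log2 difference it was 74, which kept 51 of the 56. It was 56 with the library of 3040 reads left out of the count of libraries, an alternative chosen after seeing the data. No alternative called a member between sides of mesoderm at stage 27, between layers at stages 24 and 25 or between sides of endoderm at stage 25, with or without the library of 3040 reads. Members called from stage 25 to 27 (1 in the report) were 2 with no filter (with 3824 of 17080 genes) and 2 with all 36 libraries giving the spread (3578 of 14132). They were 3 with a pseudocount of 1 CPM (4745 of 13780) and 3 with library quality weights (4948 of 13780). With only the groups compared, 10 of the 34 members tested were called, with 4473 of 11932 genes. With limma voom 13 of 56 were called, with 5043 of 13780 genes. The number was 0 with a pseudocount of 5 CPM, median centring or the replicate block (3093, 2403 and 4232 of 13780 genes). Quantile normalization also gave 1, but it was AMCG00000098, lower at stage 27, and not AMCG00018040. Nor was AMCG00018040 among the 2 with all 36 libraries, which were AMCG00014393 and AMCG00015255. Without stage 27 ventral mesoderm replicate 2 the 1 called was AMCG00015255 (with 3793 of 13635 genes). Leaving out single libraries gave 0 to 4, where 3011 to 4245 genes were called. The 4 came without stage 27 dorsal mesoderm replicate 3 (with 4245 of 13661 genes). From stage 24 to 27 the members called (0 in the report) were 1 with a pseudocount of 1 CPM (with 3118 of 13896 genes) or all 36 libraries (2641 of 14132). They were 2 with limma voom (2836 of 13896) and 6 of the 36 tested with only the groups compared (3067 of 12144). Without single libraries they were 0 to 1, where 1815 to 2901 genes were called. The 1 came without stage 27 dorsal mesoderm replicate 3 (with 2901 of 13803 genes). The cause was not tested. The replicate block changed no other call of a member. The labels do not say that a replicate number marks a shared embryo. At stages 24, 25 and 27, 0 of 15, 18 and 18 same-number pairs had deviations correlated above 0.1. The own number, 1 of at most 3, correlated best in 7, 9 and 10 of them. At stage 27 these included each pair of dorsal endoderm with dorsal mesoderm (r 0.0256 to 0.0644). They also included each pair of ventral endoderm with ventral mesoderm (r 0.0221 to 0.0618). All pairs of regions of replicate 3 at that stage were among them too (r 0.0276 to 0.0461). Weak pairing cannot be told from none by these values. Calls over all genes numbered 37 between sides of mesoderm at stage 27 (7 to 170 over the alternatives), 7 and 1 between layers at stages 25 and 24 (0 to 97 and 0 to 16), 1 between sides of endoderm at stage 25 (0 to 36), and 4147 and 2748 from stages 25 and 24 to 27 (617 to 5043 and 410 to 3463). Depth limits the levels: 34 of 336 stage 27 endoderm values rest on fewer than 10 reads.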
